A study of Mus musculus with 6 samples.

Results

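The genes described here are those that the deposited expression table classes as microRNA genes and that reached a mean of at least 1 TPM (a length-corrected share of a library's RNA) over 6 libraries of mouse haematopoietic stem cells. Of 2207 microRNA-type genes among 55471 gene IDs, 182 passed: 126 with names starting Mir, 54 with names starting Gm, and 2 with other names, Snord43 and n-TSaga9. The other 2025 stayed below the threshold, and 1544 of these were listed at 0 in all 6 libraries. The members were chosen by their mean TPM over both groups, so their levels are given as a description. Just inside the threshold, Mir8103 had a mean of 1.00 TPM and Gm22758 one of 1.01 TPM, and just outside it Mir6898 had 0.998 TPM and Mir343 0.984 TPM. Mir8103 owed its mean to a single library, at 6.02 TPM in uninduced replicate 2 and 0 in the other libraries.

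The stem cells were sorted from mice by surface proteins, as lineage-negative, Kit-positive, Sca1-positive, CD48-negative and CD150-positive cells. All 6 libraries carried the label ETV6-RUNX1 as genotype, an inducible fusion gene known from childhood B-cell precursor leukaemia. The 3 induced libraries came from mice fed doxycycline for 2 weeks, and the 3 uninduced libraries from mice of the same genotype without it. The comparison asks what changed in the stem cells after the fusion was switched on. No mice given doxycycline without the fusion were analysed here, so effects of the drug and of the fusion cannot be told apart. The age and number of the mice and the promoter that drives the fusion are not given in the sources used here. Nothing states that libraries came from separate mice, so the p-values measure the spread between these libraries, which may be technical.

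A microRNA gene is copied as part of a longer primary transcript, often an intron or exon of a host gene. The nuclear enzyme Drosha with its partner Dgcr8 cuts out a hairpin, Exportin-5 carries it to the cytoplasm with Ran, and Dicer cuts it to a short duplex, of which an arm is loaded into an Argonaute protein. The loaded arm pairs with messenger RNAs mainly through its seed, bases 2 to 8 from the 5′ end, and lowers their translation and stability. In blood-forming cells, miR-142 is abundant across the lineages, the miR-17 to miR-92a cluster is known for promoting growth and survival of precursors, and the miR-23a, miR-27a and miR-24 cluster is known for limiting B-cell development. The libraries were made from total RNA with a random-primed stranded kit and not with a small-RNA protocol. A value for a microRNA-type row is therefore the signal assigned to the stretch of the genome that holds the hairpin, and mature microRNAs were not measured separately.

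Mature sequences were read from RefSeq (GRCm38.p6), which matched 114 of the 126 Mir-named members by symbol and gave 186 mature entries with 178 different seeds. The seed is in capitals below. The first 6 sequences belong to 4 Mir-named members whose rows differed between the groups, and the others to members known from blood cells. The pairs miR-19a-3p and miR-19b-3p, and miR-103-3p and miR-107-3p, are shown because each pair shares a seed, and let-7c-5p because Mirlet7c-1 and Mirlet7c-2 both encode it.
miR-142a-5p: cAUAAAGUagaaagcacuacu
miR-142a-3p: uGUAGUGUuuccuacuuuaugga
miR-6924-5p: aGAGGAUGgggauuuggcgaagu
miR-6924-3p: uCCUUAAUccccacccuucag
miR-1931: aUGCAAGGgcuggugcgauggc
miR-8091: aGGAGUGAgugguaagcuggug
miR-18a-5p: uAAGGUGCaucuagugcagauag
miR-20a-5p: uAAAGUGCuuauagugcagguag
miR-19a-3p: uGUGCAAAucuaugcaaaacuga
miR-19b-3p: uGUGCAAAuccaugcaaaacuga
miR-23a-3p: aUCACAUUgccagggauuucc
miR-27a-3p: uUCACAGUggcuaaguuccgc
miR-24-3p: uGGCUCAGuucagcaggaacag
let-7c-5p: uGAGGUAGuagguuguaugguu
miR-10a-5p: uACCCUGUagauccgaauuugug
miR-212-3p: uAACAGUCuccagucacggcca
miR-103-3p: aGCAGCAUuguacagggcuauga
miR-107-3p: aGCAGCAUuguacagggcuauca
In all, 8 seeds were shared by 2 or more members, and 14 members took part.

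The whole RefSeq hairpin of Mir142, at chr11:87756864-87756927 on the plus strand, shows what the row covers, with both mature arms in capitals.
Mir142 hairpin: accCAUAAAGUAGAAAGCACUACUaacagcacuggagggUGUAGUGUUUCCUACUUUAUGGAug
The Gm-named rows with the highest values are of another kind. Gm23935, at chr16:11144125-11144181 (plus strand, GRCm38, GENCODE M21), is 57 bases long, and Gm24270 and Gm24245 have the same letters at other places in the genome. Capitals mark the bases of Gm24187 and Gm25911 that differ from Gm23935 (G11A in Gm24187 and G14A in Gm25911, counted from the 5′ end of Gm23935), and Gm25911 also lacks 1 base.
Gm23935: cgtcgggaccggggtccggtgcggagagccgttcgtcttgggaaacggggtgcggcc
Gm24187: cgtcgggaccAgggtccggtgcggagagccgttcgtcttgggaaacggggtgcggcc
Gm25911: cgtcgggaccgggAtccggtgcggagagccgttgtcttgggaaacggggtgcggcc
Gm47301, at chr4:149817764-149817823 (plus strand), is 60 bases long and lies wholly inside the annotated 5S ribosomal RNA gene n-R5s193.
Gm47301: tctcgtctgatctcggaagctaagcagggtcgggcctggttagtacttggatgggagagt
Among the annotation's transcripts, those like Gm23935 (at least 90% identity over at least 80% of its length) were all microRNA-type rows. The long ribosomal RNA repeat was not among the sequences compared, so its likeness to these rows was not tested.

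Mir-named and Gm-named members lay in different surroundings in the annotation. Of the 126 Mir-named members, 70 lay in an intron of another gene on the same strand, 19 wholly in an exon, 13 across an exon boundary, 8 in or across a short RNA gene, 7 opposite another gene only, and 9 overlapped no other gene. Of the 54 Gm-named members, 8 lay in an intron, 11 in an exon, 6 across an exon boundary, 11 in or across a short RNA gene, 12 opposite another gene only, and 6 overlapped none. A like transcript elsewhere in the annotation, outside overlapping genes, was found for 32 of 54 Gm-named members (59.3%) and 9 of 126 Mir-named members (7.14%). Values of rows with such copies are uncertain, since the authors' counting could split reads between them. Median length was 76 bases for Mir-named and 87.5 bases for Gm-named members, and median GC content was 54.3% and 57.5%, against 46.3% over all tested genes. The predicted folding energy per base, computed with RNAfold, had a median of -0.408 kcal/mol for Mir-named and -0.348 kcal/mol for Gm-named members.

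Few Mir-named members reached 1 TPM in every library. Only 9 of 126 Mir-named members (7.14%) reached 1 TPM in all 6 libraries, against 26 of 54 Gm-named members (48.1%) and 77.4% of all 13470 genes that reached a mean of 1 TPM. At least 1 library was listed at 0 for 87 Mir-named and 12 Gm-named members. In 38 Mir-named and 3 Gm-named members, a single library held at least 90% of the summed TPM. The library with the most members at 1 TPM or above was induced replicate 3 with 101, and induced replicate 2 had the fewest with 79. The mean was below 1 TPM in the uninduced group for 33 members and in the induced group for 50, and these passed the threshold through the other group, so counts of called members are a description and not support for a direction. An exact 0 in this kind of table can be a failed estimate, so such values are given as listed at 0.

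Facts of the whole series bear on the reading of these rows. The depth of the libraries is unknown, because TPM keeps none. Across all 13470 tested genes the median log2 change (induced minus uninduced, on the log2(TPM + 1) scale throughout) was -0.35, and it was -0.0029 after median-of-ratios scaling, which centres the libraries on their shared genes. Stem cell markers (8 of 8 tested, among them Procr, Hlf and Mecom) summed to 443 to 622 TPM in uninduced and 506 to 539.9 TPM in induced libraries, with 3 higher and 2 lower. Of the B-cell markers 5 of 6 and of the T-cell markers 3 of 4 were listed at 0 in all libraries, and myeloid markers summed to 234 to 284 TPM in both groups, with 1 of 6 tested higher, the neutrophil protease gene Prtn3 (log2 change 1.12, SE 0.22, limma adjusted p 0.0114). Megakaryocyte and platelet markers summed to 102 to 135 TPM in uninduced and 119 to 129 TPM in induced libraries, with 2 of 5 tested higher and 1 lower. Markers of red blood cells summed to 402 to 483 TPM in uninduced and 656 to 758 TPM in induced libraries, with 7 of the 11 tested higher and 1 lower. Among them the 4 globin genes summed to 44.98 to 55.3 TPM and then 379.8 to 443 TPM, and Car2, a carbonic anhydrase, fell from 339.7 to 408 TPM in uninduced to 235 to 276 TPM in induced libraries. The part of other cells in the changes below was not tested.

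With an adjusted p under 0.05 in limma (Benjamini-Hochberg over all 13470 tested genes), 11 of the 182 members differed between the groups: 5 were higher after induction and 6 lower. This is 6.04% of the members, against a background of 11.5% over all tested genes (1.29% higher and 10.2% lower). The higher members were Mir142, Mir1931, Mir8091, Mir6979 and Gm23134, and the lower ones Mir6924, Gm25745, Gm24574, Gm27597, Gm26377 and Gm25951. Of the 126 Mir-named members 4 were higher and 1 lower, and of the 54 Gm-named members 1 was higher and 5 lower. The Mir-named balance turned with each uninduced library: without uninduced replicate 1 it was 1 higher and 4 lower, without uninduced replicate 2 it was 2 and 3, and without uninduced replicate 3 it was 1 and 3. Only 2, 3 and 2 of those calls were among the 5 made with all libraries. Mir142, Mir8091, Gm23134 and Mir6924 had a mean below 1 TPM in a group and entered the test through the group in which they are high, so their p-values are a description too. At an unadjusted p under 0.05 in limma there were 24 members (13.2%), against 27.9% of all tested genes. The groups did not overlap in 24 members (13.2%), against 33.1% of all tested genes. The median log2 change was -0.21 over all members, -0.18 over Mir-named and -0.28 over Gm-named members, beside -0.35 over all tested genes, and after median-of-ratios scaling -0.01 and 0.00 over the Mir-named and Gm-named members. With that scaling, 5 members were higher and 3 lower, and 382 of all genes were higher and 432 lower, where the deposited values gave 174 and 1375. Fewer cells of a type and less RNA per cell cannot be told apart in these bulk libraries.

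**Figure D1:**
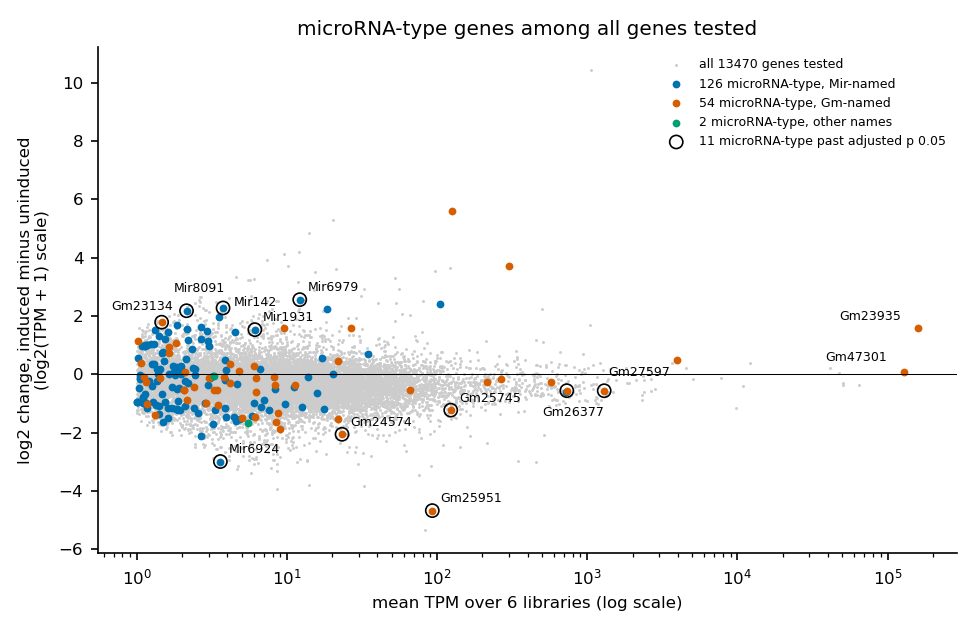
Each point is a tested gene, with its mean TPM over 6 libraries on a log axis and its log2 change (induced minus uninduced) on the vertical axis; grey points are all 13470 genes, coloured points the 182 microRNA-type genes, and rings the 11 with an adjusted p under 0.05. Most Mir-named genes sit below 10 TPM, and Gm23935 and Gm47301 lie at the far right, at means of 159161 and 128993 TPM.

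Among the higher members, Mir142 encodes the blood-cell microRNA whose hairpin is shown above. Its row was listed at 0, 2.58 and 0 TPM in uninduced libraries 1 to 3 and at 4.44, 8.93 and 6.53 TPM in induced libraries 1 to 3. Every induced library was above every uninduced one. The difference was 2.28 log2 units (SE 0.55, n = 3 and 3, limma adjusted p 0.0286). The row lies in an intron of Mir142hg, the noncoding host gene, which measured 1.52, 1.5 and 0.132 TPM in uninduced and 4.43, 5.62 and 2.67 TPM in induced libraries. The host also had groups that did not overlap, and its value of 1.40 log2 units missed the threshold (SE 0.47, limma adjusted p 0.0828). Mir142b, the gene on the opposite strand at the same place, was listed at 1.33 TPM in uninduced replicate 3 and at 0 elsewhere. The Mir142 call held in 7 of 14 alternatives and was lost in each fit that left out a library other than uninduced replicate 2, with a highest adjusted p of 0.124.

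Mir1931, at chr10:93162785-93162903 in an intron of Cdk17 (a cyclin-dependent kinase gene), measured 3.19, 1.88 and 2.83 TPM in uninduced and 11.2, 6.96 and 10.5 TPM in induced libraries. All 6 libraries were above 1 TPM, and the lowest induced value was more than the highest uninduced one. The log2 change was 1.53 (SE 0.34, limma adjusted p 0.0197). Cdk17 itself had a log2 change of 0.19 (limma adjusted p 0.635), with overlapping groups at 32.9 to 58.4 and 47.8 to 56.0 TPM. The Mir1931 call held in 11 of 15 alternatives. It was lost without an expression filter and without uninduced replicate 2, induced replicate 1 or induced replicate 3, with a highest adjusted p of 0.0860.

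Mir8091, at chr19:41588651-41588789 and overlapping no other gene, was listed at 0 in all 3 uninduced libraries and at 6.33, 0.935 and 5.57 TPM in induced libraries. The log2 change was 2.18 (SE 0.57, limma adjusted p 0.0377), and no fold is given against a group listed at 0. Mir6979, in an intron of Diaph1 (a formin that nucleates actin filaments), measured 2.52, 6.52 and 0.151 TPM in uninduced and 41.0, 9.62 and 13.0 TPM in induced libraries. Its groups did not overlap, and its log2 change was 2.56 (SE 0.69, limma adjusted p 0.0415), while Diaph1 had a log2 value of 0.28 (limma adjusted p 0.323) on the deposited scale and of 0.67 (limma adjusted p 0.0187) after median-of-ratios scaling. Gm23134, in an intron of Blcap with the imprinted gene Nnat on the opposite strand, was listed at 0, 0 and 0.0998 TPM in uninduced and measured 2.12, 1.34 and 5.21 TPM in induced libraries. Its log2 change was 1.79 (SE 0.51, limma adjusted p 0.0484), beside 1.10 for Blcap (SE 0.32, limma adjusted p 0.0552), which was 1.46 after median-of-ratios scaling (limma adjusted p 0.0248). Nnat was listed at 0.58 TPM in induced replicate 1 and at 0 in the other libraries. The calls held in 5 of 14 alternatives for Mir8091, 7 of 15 for Mir6979 and 4 of 14 for Gm23134, with highest adjusted p values of 0.129, 0.176 and 0.128. Of the 6 fits with a library left out, Mir8091 kept its call in the one without induced replicate 2, Mir6979 in the one without uninduced replicate 2, and Gm23134 in none.

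Mir6924 was the Mir-named member called lower. Its row, at chr11:69882032-69882094 in an intron of Acap1 (a GTPase-activating protein of Arf proteins in membrane traffic), measured 8.28, 8.84 and 4.45 TPM in uninduced libraries and was listed at 0 in all 3 induced libraries. The log2 change was -2.99 (SE 0.42, limma adjusted p 0.00368), a fitted value that is no bound on the fold. The call rests on exact 0s, which can be failed estimates: Dgcr8, a core processing gene, was listed at 0 in all 6 libraries. Acap1 measured 83.6, 85.2 and 80.9 TPM in uninduced and 22.1, 18.1 and 21.8 TPM in induced libraries. The host fell by 1.96 log2 units (SE 0.18, limma adjusted p 0.000489). The Mir6924 call held in all 14 alternatives run, with adjusted p from 0.00498 to 0.0230.

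The 5 Gm-named members that fell all lay within or across exons of protein-coding genes on the same strand. Gm25745, within an exon of Hsp90b1 (the endoplasmic reticulum chaperone), measured 195, 182 and 142 TPM in uninduced and 67.2, 67.8 and 84.4 TPM in induced libraries. Hsp90b1 measured 168, 206 and 129 TPM in uninduced and 89.8, 63.9 and 83.6 TPM in induced libraries, so row and gene were at like levels and neither had overlapping groups. The log2 changes were -1.23 for Gm25745 (SE 0.18, limma adjusted p 0.00431) beside -1.06 for Hsp90b1 (SE 0.21, limma adjusted p 0.0128), whose call was lost without uninduced replicate 1 or 2 or induced replicate 2. The call on Gm25745 held in all 15 alternatives.

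Gm24574, across an exon boundary of Hnrnpa3 (an RNA-binding protein of messenger RNA processing), measured 27.7, 56.2 and 30.1 TPM in uninduced and 7.62, 4.99 and 12.8 TPM in induced libraries. Hnrnpa3 stood at 18.2, 20.1 and 19.2 TPM and then at 3.06, 4.97 and 5.09 TPM. Both fell without overlap, Gm24574 with a log2 difference of -2.05 (SE 0.37, limma adjusted p 0.00821) beside -1.93 for Hnrnpa3 (SE 0.28, limma adjusted p 0.00408). The Gm24574 call held in 14 of 15 alternatives and was lost without an expression filter (adjusted p 0.0572).

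Gm27597 lies in the coding sequence of Rpl19, a protein of the large ribosomal subunit, and its letters also occur in Rpl19 pseudogenes. It measured 1573, 1677 and 1385 TPM in uninduced and 1046, 1014 and 1072 TPM in induced libraries. Gm26377 lies in an untranslated part of Eef1a1, the translation elongation factor, and measured 953, 891 and 767 TPM and then 569, 633 and 565 TPM. The groups overlapped in neither. The log2 change was -0.56 for Gm27597 (SE 0.12, limma adjusted p 0.0197), beside -0.58 for Rpl19 (SE 0.14, limma adjusted p 0.0295). For Gm26377 it was -0.56 (SE 0.13, limma adjusted p 0.0273), beside -0.56 for Eef1a1 (SE 0.13, limma adjusted p 0.0269). The median over all tested genes was -0.35. After median-of-ratios scaling the changes were -0.16 for both rows, with limma adjusted p of 0.282 and 0.479, and each call on a row held in 4 of 15 alternatives. For Rpl19 and Eef1a1 they were -0.18 and -0.15, with limma adjusted p of 0.286 and 0.273. Of the 6 fits with a library left out, both rows and both genes kept their calls in the one without uninduced replicate 3 alone.

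Gm25951, in the coding sequence of Rcc2 (a chromosome and cytoskeleton regulator), did not move in step with its gene. The row measured 184, 158 and 122 TPM in uninduced libraries and 0.727, 0.370 and 91.6 TPM in induced libraries. Rcc2 measured 89.8, 108 and 83.9 TPM and then 57.7, 43.1 and 57.8 TPM. The row was near 0 in induced replicates 1 and 2 and near its gene's level in induced replicate 3. Its log2 change was -4.67 (SE 1.27, limma adjusted p 0.0432) against -0.82 for Rcc2 (SE 0.19, limma adjusted p 0.0241). With median-of-ratios scaling Rcc2 was no longer called (-0.42, limma adjusted p 0.132), nor in any leave-one-out fit but that without uninduced replicate 3. The call on Gm25951 was kept in 4 of 15 alternatives, including the fit without induced replicate 3, and in none of the 5 fits without another library (highest adjusted p 0.200). It was also lost with median-of-ratios scaling and both other rescalings, with a pseudocount of 0.1, without a filter and without the variance trend.

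**Figure D2:**
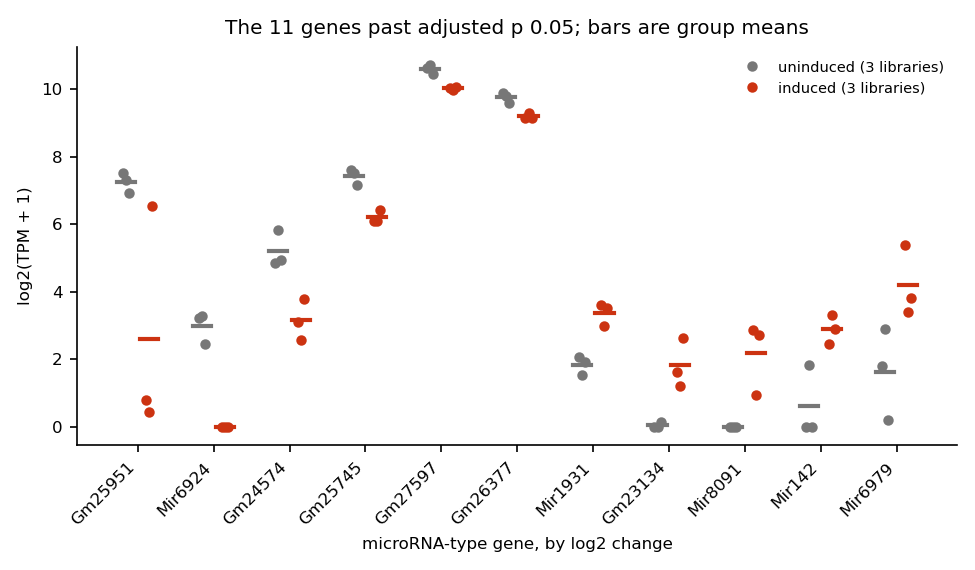
Values of the 11 microRNA-type genes with an adjusted p under 0.05, as log2(TPM + 1) in each of the 3 uninduced (grey) and 3 induced (red) libraries; short bars are group means. Mir6924 lies at 0 in all induced libraries, Mir8091 at 0 in all uninduced ones, and induced replicate 3 of Gm25951 lies at 91.6 TPM, far above the other induced libraries.

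Nearly all TPM in microRNA-type rows belonged to a few Gm-named rows. Gm-named members held 19.6%, 18.5% and 29.9% of the TPM in uninduced and 34.9%, 41.1% and 33.7% in induced libraries. The groups did not overlap, with means of 22.7% ± 6.31 and 36.6% ± 3.95 (SD, n = 3 each). The exact two-sided permutation test gave p = 0.1, the smallest that 3 against 3 libraries allow. The 126 Mir-named members held 0.139% ± 0.0385 and 0.116% ± 0.0198 (SD, n = 3 each), with overlapping groups and an exact two-sided permutation p of 0.5. Adjusted for these 2 shares, the p-values were 0.2 and 0.5. A single row, Mir6236, had a mean of 720 TPM over both groups. The Mir-named members together averaged 1389 TPM in uninduced and 1161 TPM in induced libraries, and their share without Mir6236 was not tested. As a percent of all TPM, the induced minus uninduced difference was 13.9 for Gm-named and -0.0228 for Mir-named members. Against the TPM of nuclear protein-coding genes it was 89.7 and 0.055, so the Mir-named direction turned.

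Gm23935 alone measured 31967, 75368 and 172409 TPM in uninduced and 199252, 280066 and 195900 TPM in induced libraries. All induced libraries were above all uninduced ones, but uninduced replicate 3 was close to the induced range. The log2 change of 1.57 (SE 0.47) missed the threshold with a limma adjusted p of 0.0586, and it passed with a mean of at least 5 TPM (0.0441), with the replicate block (0.0441) and without uninduced replicate 3 (2.18, adjusted p 0.0158). Its identical copy Gm24270, in an intron of Peak1, measured 2002, 2804 and 4920 TPM and then 2450, 4459 and 7182 TPM, with overlapping groups (log2 change 0.50, limma adjusted p 0.435). The other copies had log2 changes below 0 before rescaling. Gm24245 went from 103, 60.0 and 76.4 TPM to 55.2, 49.3 and 54.4 TPM, with a log2 change of -0.55 that missed the threshold (limma adjusted p 0.128). Gm24187 had a log2 change of -0.16 and Gm25911 one of -0.28 (limma adjusted p 0.533 and 0.299), with overlapping groups at 227 to 317 TPM and 472 to 772 TPM, and after median-of-ratios scaling these were 0.24 and 0.12. Since the first 3 have the same letters, the division of reads between them rests on the authors' alignment and counting.

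The 5S ribosomal RNA is a part of the large ribosomal subunit. Gm47301, inside a 5S gene, measured 156870, 102738 and 118045 TPM in uninduced and 143323, 122885 and 130097 TPM in induced libraries. The induced values lay within the uninduced range, with a log2 difference of 0.09 (SE 0.17, limma adjusted p 0.767). The gene around it, n-R5s193, was itself listed at 38326 to 58355 TPM. The 4 members inside 5S genes, among them Gm47276 at 171 to 316 TPM, held 12.6% ± 2.80 of the TPM in uninduced and 13.2% ± 1.04 in induced libraries (SD, n = 3 each), with overlapping groups. The 45 Gm-named members outside these families held 0.314% ± 0.0362 and 0.266% ± 0.0336.

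**Figure D3:**
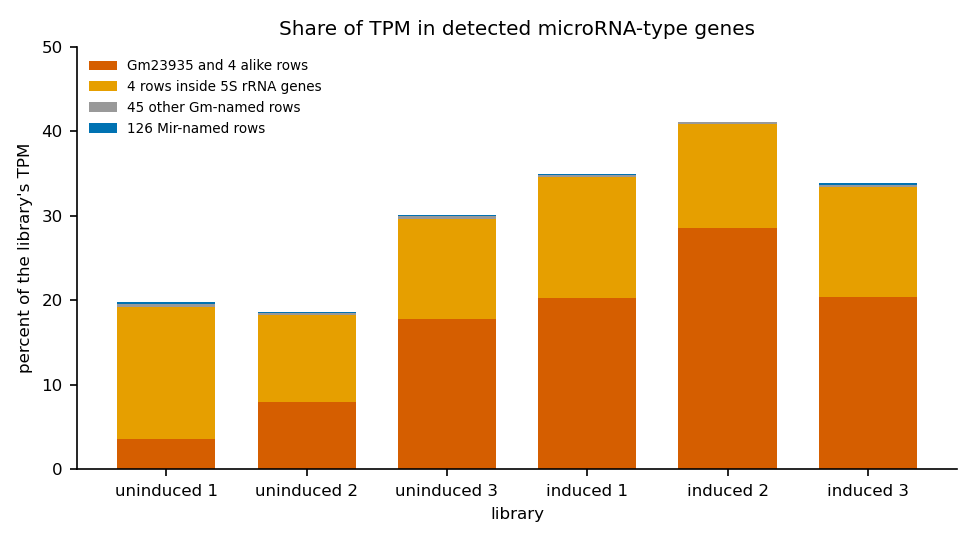
Stacked bars give the percent of each library's TPM in Gm23935 and its 4 alike rows, in the 4 rows inside 5S ribosomal RNA genes, in the other Gm-named rows and in the 126 Mir-named rows. The Gm23935 rows range from 3.52% in uninduced replicate 1 to 28.5% in induced replicate 2, while the 5S rows stay between 10.3% and 15.7%, and the Mir-named rows are at most 0.181%.

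The most abundant Mir-named members were mostly not known blood microRNAs. Mir6236, at chr9:110281287-110281409 and overlapping no other gene, measured 1231, 569 and 844 TPM in uninduced and 601, 562 and 511 TPM in induced libraries, which was the highest mean of any Mir-named member. The groups overlapped, with a log2 difference of -0.59 (SE 0.24, limma adjusted p 0.139), which passed without uninduced replicate 2 (-0.87, limma adjusted p 0.0411) and was -0.19 after median-of-ratios scaling. Mir703, opposite an intron of Cfap299, is 98.16% identical to Eef1a1 over its whole length, and measured 15 to 24.9 TPM with overlapping groups (log2 change 0.03, limma adjusted p 0.960). Mir5136, Mir5125, Mir8094, Mir3535, Mir6999, Mir6973a and Mir8104 had means of 8.31 to 17.1 TPM, overlapping groups and adjusted p of 0.189 or more. Among their hosts, Ltb, the gene of the cytokine lymphotoxin beta around Mir6973a, rose from 30.6, 50.2 and 47.0 TPM to 119.8, 113 and 112 TPM (log2 change 1.44, SE 0.21, limma adjusted p 0.00408), while Mir6973a had a log2 change of -0.49 (limma adjusted p 0.764). Ddx39b (around Mir8094) and Ncl (around Mir3535) fell, with log2 changes of -0.80 and -0.97 (limma adjusted p 0.0376 and 0.00786). After median-of-ratios scaling the call was kept for Ncl (-0.57, limma adjusted p 0.0284) and lost for Ddx39b (-0.41, limma adjusted p 0.188), which was also lost in each leave-one-out fit except that without uninduced replicate 3.

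In several abundant rows the signal switched on and off between libraries of the same group, beside a gene that covers the same place. Mir8114, across an exon boundary of Glul (glutamine synthetase), measured 99.5, 1.26 and 88.3 TPM in uninduced and 158, 143 and 135 TPM in induced libraries. Its log2 change of 2.43 missed the threshold (limma adjusted p 0.203) and was 0.63 without uninduced replicate 2. In uninduced replicate 2, where the row was lowest, Glul stood at 116 TPM, and Glul rose over the groups (log2 change 0.72, SE 0.18, limma adjusted p 0.0295). The Glul call was kept after median-of-ratios scaling (1.12, limma adjusted p 0.00302) and lost in each leave-one-out fit except that without uninduced replicate 2. Gm22133, in an exon of the ferritin light chain gene Ftl1, measured 329 and 418 TPM in induced replicates 1 and 2 and at most 0.296 TPM in the other 4 libraries. Its log2 change of 5.59 (SE 1.75) had a limma adjusted p of 0.0668, and one of 4.3e-05 without induced replicate 3. Ftl1 measured 235 to 286 TPM in uninduced and 250 to 333 TPM in induced libraries, with a log2 change of 0.13 (limma adjusted p 0.628), and 0.53 after median-of-ratios scaling (limma adjusted p 0.0298).

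The same switching was seen in some of the 19 members that share a place with a short RNA gene, such as a small nucleolar or Cajal body RNA, which guide chemical changes of other RNAs. Of the 19, 8 reached 1 TPM in all 6 libraries and 2 had a library listed at 0, and the 5 rows given here are among the members with the highest means. Mir3069 measured 109 TPM in induced replicate 3 and at most 0.128 TPM in the other libraries. Scarna13, which contains it, was listed at 0 in induced replicate 3 and measured 471 to 584 TPM in the other 5. Mir1839 had 27.3, 22.5 and 55.4 TPM in uninduced replicates 2 and 3 and induced replicate 3, and at most 0.0412 TPM in the others. The Cajal body RNA gene that is also named Mir1839 had at most 0.340 TPM in those 3 libraries and 141 to 173 TPM in the others, so high values of the pair never fell in the same library. Mir664 had 13.3 to 17.0 TPM in the 3 libraries in which Snora36b was listed at 0, and at most 0.162 TPM in the 3 in which Snora36b had 25.1 to 32.0 TPM. Mir3068 had 196 TPM in induced replicate 3 and at most 5.17 TPM elsewhere, while the snoRNA-type gene of the same name went from 5.59 to 14 TPM in 4 libraries to 394 and 297 TPM in induced replicates 2 and 3. The long noncoding RNA gene Gm29362 at the same place measured 451 to 606 TPM in those 4 libraries and 26.9 and 19.9 TPM in induced replicates 2 and 3. Gm47299, across the boundary of the 7SL-type gene Rn7s2 of the signal recognition particle, ranged from 0.0602 to 288 TPM in uninduced and from 21.7 to 888 TPM in induced libraries, where Rn7s2 measured 4085 to 4243 TPM in uninduced and 4537 to 5075 TPM in induced libraries. Rn7s2 had a log2 difference of 0.22 (limma adjusted p 0.239), and of 0.62 after median-of-ratios scaling (limma adjusted p 0.00439). In none of these 5 rows did the groups differ by limma (adjusted p 0.219 or more). The part of read assignment in these values was not tested.

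Of 91 microRNA genes listed for their known roles in blood cells, 85 were in the table, 14 were members, 42 were above 0 but below a mean of 1 TPM, and 29 were listed at 0 throughout. Mir142 was the listed member with an adjusted p under 0.05. The highest means among the 14 were those of Mir18 at 3.86 TPM, Mir24-2 at 3.83 TPM, Mir142 at 3.75 TPM and Mir27a at 3.01 TPM. Well-known blood microRNA genes such as Mir155, Mir21a and Mir451a, chosen after their values were seen, were below the threshold at means of 0.419, 0.150 and 0.0628 TPM.

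The growth-promoting cluster gave 4 members, Mir18, Mir20a, Mir19a and Mir19b-1, all in an exon of Mir17hg. Mir18 measured 4.95, 0.0775 and 12.1 TPM in uninduced and 5.84, 0 and 0.132 TPM in induced libraries. Mir20a was above 1 TPM in uninduced replicate 1 and induced replicate 2 only, at 7.04 and 5.31 TPM. Mir19a, at 7.39 and 6.60 TPM, and Mir19b-1, at 2.94 and 5.33 TPM, both reached 1 TPM in uninduced replicate 2 and induced replicate 2 only. The host was steadier, with 3.20, 4.93 and 3.26 TPM in uninduced and 2.70, 2.87 and 2.78 TPM in induced libraries. The groups overlapped in all 4 rows. They did not overlap in the host, whose log2 change was -0.32 (SE 0.35, limma adjusted p 0.586).

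The B-cell-limiting cluster on chromosome 8 gave Mir23a, Mir27a and Mir24-2. Mir24-2 measured 10.5, 0.644 and 1.10 TPM in uninduced and 9.57, 0.840 and 0.335 TPM in induced libraries, high in replicate 1 of both groups. Mir27a measured 4.10, 0 and 0.696 TPM and then 5.42, 0.141 and 7.72 TPM. Mir23a measured 0, 0 and 6.33 TPM and then 3.36, 0.325 and 2.72 TPM. Groups overlapped in all 3, with log2 changes of -0.21, 0.96 and 0.52 for Mir24-2, Mir27a and Mir23a (limma adjusted p 0.905, 0.482 and 0.716). These values moved with single libraries. Mir24-2 ranged from -1.12 (without induced replicate 1) to 0.67 (without uninduced replicate 1), Mir27a from 0.40 (without induced replicate 3) to 1.87 (without induced replicate 2), and Mir23a from 0.04 (without uninduced replicate 1 or 2) to 1.47 (without uninduced replicate 3).

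Other listed members were above 0 in few libraries and did not pass the test with all 6 libraries. Mir10a, a microRNA of the Hox clusters, was listed at 0 in all uninduced libraries and at 0.173, 2.07 and 5.62 TPM in induced ones (log2 change 1.52, limma adjusted p 0.153). Mir212 had 9.46, 0 and 6.59 TPM in uninduced libraries and was listed at 0 in all induced ones (log2 change -2.10, limma adjusted p 0.117, and -3.16 and 0.0146 without uninduced replicate 2). Mir107 and Mirlet7c-2 each had a single library above 0, at 6.71 TPM in induced replicate 1 and 6.82 TPM in induced replicate 2. Mirlet7c-1 had 6.54 and 0.501 TPM in uninduced replicates 1 and 2, and Mir103-2 had 6.58 and 1.58 TPM in induced replicates 1 and 2 and 0.240 TPM in uninduced replicate 2. The genes around these, Pank1, Lncppara, Mir99ahg and Pank2, had limma adjusted p of 0.186 or more.

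**Figure D4:**
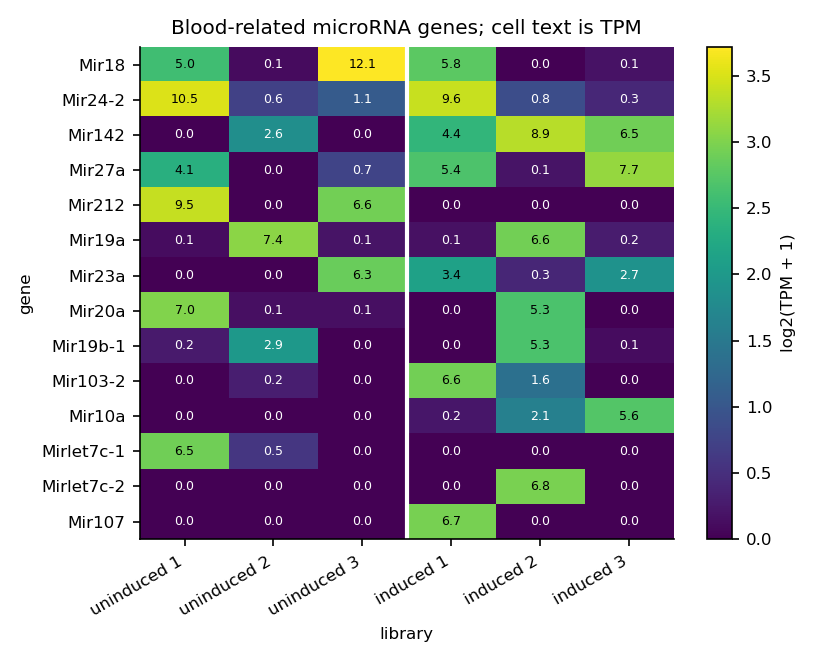
Rows are the 14 listed blood microRNA genes that were members, columns the 6 libraries with the 3 uninduced ones at the left; colour is log2(TPM + 1) and the number in a cell is the TPM. Mir142 is above 0 in all 3 induced libraries and in 1 uninduced library, Mir10a is above 0 in the induced libraries only, and Mir212 in 2 uninduced libraries only.

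Leaving aside the members that share a place with a short RNA gene, 117 members overlapped a longer tested gene on the same strand. Across these 117 pairs the log2 changes of member and surrounding gene had a Pearson r of 0.343, and 76 pairs had the same sign. These pairs share the same 6 libraries and some share a gene, and the value is a description. In the 13 pairs whose member had a mean of at least 10 TPM the r was 0.720 and 10 had the same sign, and in the other 104 pairs the r was 0.268. Of the 27 pairs with the member in an exon, 4 members and 6 surrounding genes were called, and in all 4 cases of a called member its gene was called too. Of the 72 pairs with the member in an intron, 5 members and 10 surrounding genes were called, and in 1 pair, Mir6924 with Acap1, both were. Over all tested genes 11.5% were called, and these counts of pairs are a description. A different set is that of the host genes, taken as the longer genes that wholly contain a Mir-named member on the same strand, members at short RNA genes included and genes overlapped only in part, such as Glul, left out. Counted once each, the 94 tested host genes held 14 called genes, 1 higher and 13 lower (14.9%, against 11.5% of all tested genes), and after median-of-ratios scaling 3 were higher and 6 lower. The higher one was Ltb, and the largest decreases in log2 were those of Acap1, Pold1 (-1.91), Jag2 (-1.90) and Dnmt1 (-1.89), the last 3 chosen after their values were seen. The Jag2 call was lost without uninduced replicate 1 or 2 and without induced replicate 2 or 3, with limma adjusted p of 0.0613 to 0.0764.

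**Figure D5:**
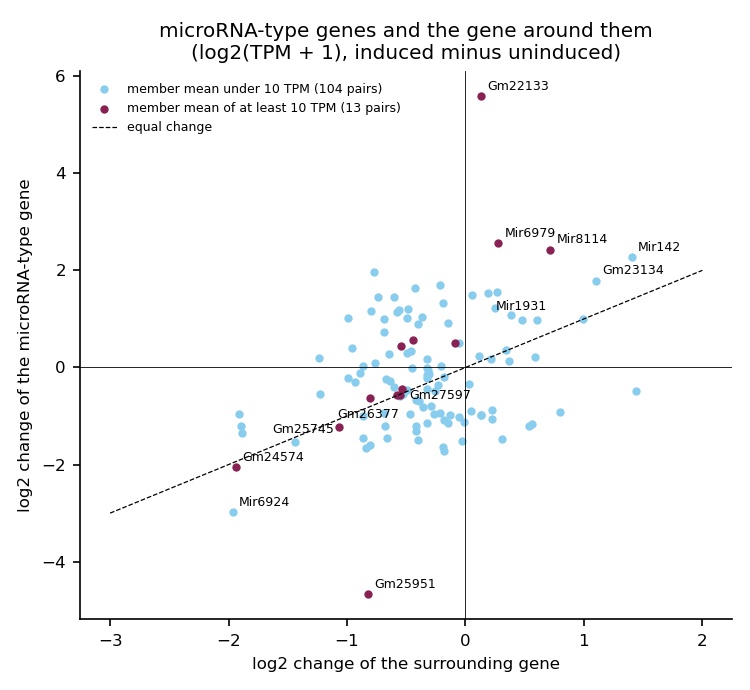
Each point is a microRNA-type gene and the gene around it on the same strand (117 pairs), members at short RNA genes left aside, with the log2 change of the surrounding gene across and that of the microRNA-type gene upwards; the dashed line marks equal change, and dark points are the 13 pairs with a member mean of at least 10 TPM. Gm24574, Gm25745, Gm26377 and Gm27597 lie near the line, and Gm22133 and Gm25951 lie far from it.

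Of 47 genes of microRNA processing and action in the table, 44 were tested, and 9 were lower after induction and 0 higher (20.5%, against 11.5% of all tested genes). By unadjusted p under 0.05, 22 of the 44 passed in limma, against 27.9% of all tested genes. The median log2 change of the 44 was -0.51, beside -0.35 over all tested genes, and -0.12 after median-of-ratios scaling, under which 4 were lower. The core processing enzymes missed the threshold although their groups did not overlap, as in 23 of the 44 genes (52.3%, against 33.1% of all tested genes). Drosha measured 26.8, 22.4 and 27.5 TPM in uninduced and 16, 14.8 and 13.2 TPM in induced libraries (log2 change -0.76, SE 0.22, limma adjusted p 0.0517). Dicer1 measured 27.8, 30.7 and 10.8 TPM and then 9.33, 8.13 and 8.51 TPM (log2 change -1.20, SE 0.37, limma adjusted p 0.0632), and passed the threshold without uninduced replicate 3 (-1.65, limma adjusted p 0.0139). Ago2, the Argonaute that can cut its targets, measured 12.7, 13.7 and 9.69 TPM and then 6.11, 4.78 and 6.63 TPM (log2 change -0.93, SE 0.28, limma adjusted p 0.0629). After median-of-ratios scaling the log2 changes were -0.38 for Drosha, -0.82 for Dicer1 and -0.57 for Ago2 (limma adjusted p 0.368, 0.187 and 0.222). Dgcr8 was listed at 0 in all 6 libraries and was not tested.

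The 9 pathway genes called lower are given next. Ran, the GTPase that drives export by Exportin-5 and much other nuclear transport, fell from 119, 138 and 115 TPM to 45.2, 44.7 and 50.5 TPM (log2 change -1.39, SE 0.16, limma adjusted p 0.00178). Erh, a partner of the Drosha complex, fell from 56.4, 60.8 and 53.2 TPM to 21.8, 22.6 and 22.4 TPM (log2 change -1.31, SE 0.18, limma adjusted p 0.00362). Neither gene had overlapping groups. The RNA-binding proteins Hnrnpa2b1 and Khsrp, which bind some microRNA precursors, had log2 changes of -0.93 and -0.79 (limma adjusted p 0.00551 and 0.0165). The cap-binding proteins Ncbp1 and Ncbp2 had -1.21 and -0.999 (limma adjusted p 0.0145 and 0.0267), and the deadenylase scaffold Cnot1 -0.93 (limma adjusted p 0.0249). The chaperones Hsp90ab1 and Hsp90aa1, which help load Argonaute proteins, had -0.996 and -0.75 (limma adjusted p 0.00263 and 0.0327). After median-of-ratios scaling Ran, Erh, Hnrnpa2b1 and Hsp90ab1 were still lower, with limma adjusted p of 0.00450, 0.0139, 0.0187 and 0.00463. The calls on Khsrp, Ncbp1, Ncbp2, Cnot1 and Hsp90aa1 were lost with that scaling (limma adjusted p 0.154, 0.0718, 0.138, 0.138 and 0.375). Leaving out a library ended them too: Ncbp2 in each of the 6 fits, Cnot1 in all but that without uninduced replicate 3, Hsp90aa1 in all but that without uninduced replicate 2, Ncbp1 without uninduced replicate 2 or induced replicate 1 or 2, and Khsrp without induced replicate 2 or 3.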

How the data were processed

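Per the labels' protocols, the 6 stem cell libraries were paired-read, stranded total RNA libraries for very small inputs. The submitters' processing notes list bcl2fastq, HISAT2, StringTie and DESeq2 and the build GRCm38, with no role, version or annotation release. The authors deposited 1 table of TPM values per gene, made with StringTie per the file name, and the GC content of each gene as a percent, per the file headers. TPM was divided by gene length and library total before deposit, so depth is unknown and no counting interval is given.

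Rows sharing a gene ID were summed, and the 6 library columns were assigned to groups by their titles. The 13470 genes with mean TPM of 1 or more were fitted with limma 3.58.1 (R 4.3.3) after a log2(TPM + 1) transformation (variance trend, two-sided, Benjamini-Hochberg adjustment, threshold 0.05). On simulated data of 13470 genes for this comparison, 92% of genes changed by 2 log2 units and 30% of those changed by 1 were recovered, with 11 false calls of 133. The changed genes were drawn from those above about 5 TPM, with normal noise. Most members lie below that level (51 reach a mean of 5 TPM), and recovery among those was not tested. Shares of TPM were compared by an exact permutation test over libraries. Positions and surrounding genes came from GENCODE M21 (GRCm38), matched by gene ID, like transcripts from blastn 2.17.0 (at least 90% identity over 80% of the length), and folding energies from RNAfold 2.7.2.

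The members and gene lists were chosen with earlier results of these data known. Named genes are the 15 Mir-named and 10 Gm-named members with the highest mean, every member with an adjusted p under 0.05, every member in a hand-written list of blood microRNAs, the hosts of these, and of the pathway list Drosha, Dgcr8, Dicer1, Ago2 and those with an adjusted p under 0.05. Gm24245 and genes that overlap an abundant row were added after their values were seen. Alternatives were pseudocounts of 0.1 and 5, no filter, a filter at a mean of 5 TPM, scaling by median of ratios, rescaling to nuclear protein-coding genes or without microRNA-type genes, no variance trend, a block for replicate number, and 6 fits with a library left out. For the shares, the denominator and the first row of each gene ID were also tried.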

Additional observations from a re-analysis of the deposited data

How the results depend on the processing

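With 3 libraries a group, spread between libraries rather than depth can be measured. The count of genes called over all 13470 tested was 752 without a filter, 814 with median-of-ratios scaling, 808 rescaled to nuclear protein-coding genes, 919 rescaled without microRNA-type genes and 767 without the variance trend, and 573 to 1198 with a library left out, against 1549. The 11 members called became 2 without a filter, 7 rescaled without microRNA-type genes and 5 without the variance trend, and 4 to 10 with a library left out. Mir-named calls, 5, became 1 without a filter, 2 with a mean of at least 5 TPM and 2 without the variance trend, and 2 to 5 with a library left out, where 4 higher and 1 lower became 1 and 4, 2 and 3, and 1 and 3 without uninduced replicates 1, 2 and 3. Gm-named calls, 6, became 1 without a filter, 3 with median-of-ratios scaling, 3 rescaled to nuclear protein-coding genes, 2 rescaled without microRNA-type genes and 3 without the variance trend, and 2 to 5 with a library left out. Host genes called, 14, became 9 without a filter and under each of the 3 rescalings, 6 without the variance trend, and 7 to 13 with a library left out. Pathway genes called, 9, became 4 with median-of-ratios scaling, 4 rescaled to nuclear protein-coding genes, 5 without microRNA-type genes and 4 without the variance trend, and 4 to 9 with a library left out. Fewer genes pass the mean of 5 TPM by construction (51 members), and the cause of the other changes was not tested.

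The replicate block, which treats libraries of the same replicate number as a pair, called 902 of all genes and 11 members, of which 7 were also called without it. Deviations of same-numbered libraries correlated by 0.0215, -0.0152 and 0.0172. These values show no pairing by number, and they cannot exclude a weak one. The induced minus uninduced share of TPM in Gm-named members was 13.9 percentage points, 11.6 to 17.5 with a library left out, and 89.7 as a percent of the TPM of nuclear protein-coding genes. That of Mir-named members was -0.0228, -0.0392 to -0.0016 with a library left out, and 0.055 against nuclear protein-coding genes. Among the genes given with a log2 change, directions reversed for 8, and none of these passed the threshold in the settings that turned them. They were Gm47301 without uninduced replicate 2 (-0.046 to 0.26 with a library left out), Cdk17 without uninduced replicate 3 (-0.051 to 0.35), Mir6973a without uninduced replicate 3 or induced replicate 2 (-1.12 to 0.67), Mir703 without uninduced replicate 1, induced replicate 2 or induced replicate 3 (-0.12 to 0.23) and Mir24-2 without the same 3 libraries (-1.12 to 0.67). Rescaling reversed Mir24-2 (0.030 with median-of-ratios, 0.044 to nuclear protein-coding genes), Gm25911 (0.12, 0.16, and 0.0056 without microRNA-type genes), Gm24187 (0.24, 0.27 and 0.12 likewise) and Mir17hg (0.012 to nuclear protein-coding genes).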
